A study of Homo sapiens with 9 samples.

Results

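The 3 subclusters of replication-dependent histone genes on the short arm of chromosome 6 were described by their contacts in Hi-C and capture Hi-C. The 50 genes, of 20176 protein-coding genes placed on the genome, lie in 3 intervals of hg19, and the intervals touch 13 of the 77404 bins of 40 kb into which the Hi-C maps were divided. Subcluster 1, chr6:26000001-26300000, touches 8 bins and holds 29 genes. Subcluster 2, chr6:27080001-27140000, touches 2 bins and holds 5 genes, and subcluster 3, chr6:27760001-27880000, touches 3 bins and holds 16 genes. Contacts were set against a spacer of 5 bins with the butyrophilin genes, chr6:26360001-26540000, and against 74 bins in flanks of 1.5 Mb to either side. The upstream flank also holds H2AC1 and H2BC1, histone genes with the same stem-loop that lie outside the 3 intervals and were counted with the flank. Membership came from the gene annotation and position, not from a contact value.

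All libraries came from IMR90, a line of human lung fibroblasts, at passage 20 to 25. The cells carried ER:HRAS(G12V), in which the activated RAS oncogene is fused to the oestrogen receptor so that 4-hydroxytamoxifen (4OHT) switches it on. Hi-C, in which DNA lying close together in the nucleus is ligated and sequenced, was analysed in 3 libraries of growing cells without 4OHT and in 2 libraries of cells in RAS-induced senescence (RIS) after 6 days of 100 nM 4OHT. The label of growing replicate 3 also lists an MSCV vector, and capture Hi-C, in which baits enrich contacts of chosen regions, was analysed in 2 growing and 2 RIS libraries. No expression data were analysed here, so the level of histone transcripts in these cells is not given.

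Replication-dependent histone genes encode the core histones H2A, H2B, H3 and H4 and the linker histone H1 that package newly copied DNA, and they are transcribed mainly in S phase. Their transcripts end in a conserved stem-loop in place of a poly(A) tail. In many cell types the clusters are found at histone locus bodies, nuclear bodies in which the factors for histone transcription and 3′ processing are concentrated. Senescent cells have left the cell cycle for good, so S phase no longer takes place in most of them.

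Subcluster 1 held 5 H1, 4 H2A, 6 H2B, 7 H3 and 7 H4 genes. Subcluster 2 held 2 H2A genes, 2 H2B genes and 1 H4 gene. Subcluster 3 held 1 H1, 5 H2A, 4 H2B, 3 H3 and 3 H4 genes. These counts are those of the annotation used, and H2BC7, H2BC8 and H4C6 were not analysed here. The stem-loop is shown because all genes of the 3 subclusters share it. It was found within 100 bases past the coding sequence of all 50 genes with at most 3 mismatches to the commonest 16-base word, in 9 different sequences. The 3 commonest are given 5′ to 3′ on the gene's strand as DNA, with the loop in capitals and the stem in lower case.
28 genes: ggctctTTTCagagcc
8 genes: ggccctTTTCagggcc
7 genes: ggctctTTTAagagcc
The first of these stood in 15 genes of subcluster 1, 1 gene of subcluster 2 and 12 genes of subcluster 3. In GRCh37 it lies in the 3′ UTR region after H3C1 in subcluster 1 at chr6:26021160-26021175 on the plus strand, after H2AC12 in subcluster 2 at chr6:27115325-27115340 on the plus strand, and after H2BC13 in subcluster 3 at chr6:27775262-27775277 on the minus strand. The second, found after H4C1 at chr6:26022258-26022273 on the plus strand, stood in 7 genes of subcluster 1 and 1 gene of subcluster 3. The third, found after the linker histone gene H1-1 at chr6:26017265-26017280 on the minus strand, stood in 5 genes of subcluster 1 and 2 of subcluster 2.

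The Hi-C libraries held 154318992 to 180775315 contacts in growing cells and 109967509 to 150689993 in RIS, recovered from the balanced values. Contacts are given as the log2 of the mean observed over expected value, where the expected value is the mean of all pairs of kept chromosome 6 bins at the same distance in the same library. A value of 0 is thus the chromosome's average. With 3 libraries against 2, the two-sided exact permutation test cannot give a p under 0.1. The study calls its libraries biological replicates. The labels name no separate cultures, so the p-values are given as measuring the spread between these libraries. All 13 histone bins were kept, but their coverage differed. The recovered coverage of the bin at chr6:26120001-26160000, with 4 HindIII sites and the genes H2BC4, H2AC6, H1-4 and H2BC5, lay at -3.00 to -2.42 on the log2 scale relative to the median chromosome 6 bin, the lowest of the 13 bins.

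The 3 subclusters contacted each other far above the chromosome's average in every library, across long stretches of intervening DNA. Subclusters 1 and 3, whose 24 bin pairs have a median distance of 1660 kb, reached 8.54 times the expected contact in growing cells and 7.17 times in RIS. Subclusters 2 and 3, at a median distance of 700 kb, reached 7.39 times in growing cells and 8.30 times in RIS. Subclusters 1 and 2, at a median distance of 960 kb, reached 2.98 and 3.22 times. These excesses were present in all 5 libraries, whereas the difference between the conditions was small beside them.

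**Figure D1:**
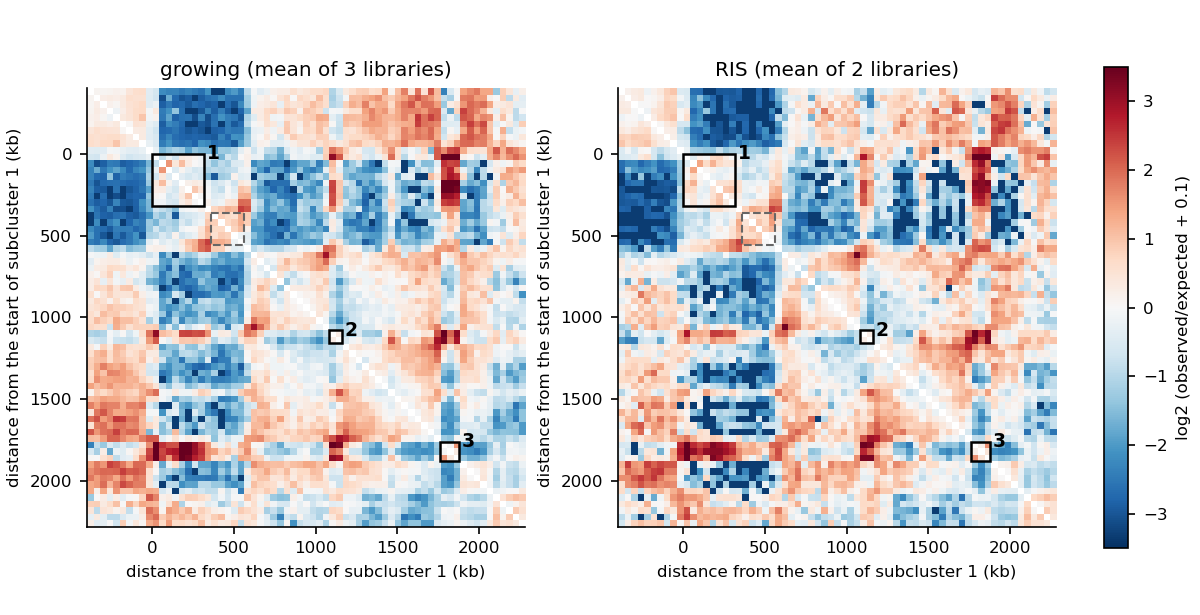
Hi-C contacts around the histone genes, as log2 of observed over expected plus 0.1, in 40 kb bins, averaged over 3 growing libraries (left) and 2 RIS libraries (right); both axes give the distance from the start of subcluster 1 in kb. Solid squares mark subclusters 1, 2 and 3, the dashed square marks the spacer, and the red blocks off the diagonal where rows and columns of subclusters cross are their mutual contacts, reaching 8.54 times the expected value between subclusters 1 and 3 in growing cells.

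Between subclusters 1 and 3 the log2 values of the growing libraries, in the order of their replicate numbers as throughout, were 3.16, 3.14 and 2.98. Those of the RIS libraries were 2.76 and 2.92. The RIS values lay below all growing values, and the difference of -0.25 had an exact permutation p of 0.2, or 0.24 after Benjamini-Hochberg adjustment over the 18 contact values compared. The recovered contacts behind this block numbered 660, 740 and 749 in growing cells and 426 and 517 in RIS. Growing replicate 3 and RIS replicate 2 were the libraries with many duplicates, and between those alone the difference was -0.06, against -0.39 among the other 3 libraries. Recovered contacts without balancing gave -0.14.

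Bins of the A compartment, the active part of the genome, served as a second yardstick, taken from chromosome 6 outside this window at the same distances. Relative to those, contacts between subclusters 1 and 3 were 3.41, 3.39 and 3.21 in growing cells and 2.86 and 3.11 in RIS on the log2 scale. The RIS values were again the lowest, and the difference was -0.35 (exact permutation p = 0.1). By the same yardstick subclusters 1 and 2 differed by 0.01 (exact permutation p = 0.8) and subclusters 2 and 3 by 0.09 (exact permutation p = 0.3), both with overlapping groups.

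Against the chromosome's average, the means of the other pairs of subclusters differed in the opposite direction, without the overlap seen against A bins. Between subclusters 2 and 3 the log2 values were 2.81, 2.88 and 2.97 in growing cells and 3.03 and 3.08 in RIS, a difference of 0.17 without overlap (exact permutation p = 0.2, adjusted p = 0.24). Between subclusters 1 and 2 they were 1.48, 1.61 and 1.63 in growing cells and 1.67 and 1.70 in RIS, a difference of 0.11 (exact permutation p = 0.2, adjusted p = 0.24). The latter came to -0.00110 when only bins with a histone gene were used, which leaves out the second bin of subcluster 2, and 0.06 without growing replicate 1.

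All 46 bin pairs that join different subclusters were above the expected contact in RIS and 44 of them in growing cells. The growing pairs below it rested on 2 to 11 recovered contacts a library. The number of pairs above 10 times the expected value was 9 in growing cells and 4 in RIS. These counts use means of 3 growing and 2 RIS libraries, and the share of other chromosome 6 pairs above the same limits is not given. The highest growing mean joined the first bin of subcluster 1, chr6:26000001-26040000, to the first bin of subcluster 3, chr6:27760001-27800000. The former holds H1-1, H3C1, H4C1, H4C2, H3C2 and H2AC4, and the latter holds 7 genes of classes H2A, H2B, H3 and H4, among them H3C10 and H4C11. Their contact was 20.1, 20.3 and 15.8 times the expected value in growing cells and 9.78 and 13.7 times in RIS, on 75, 91 and 76 and on 31 and 49 recovered contacts. The highest RIS mean, 12.2 times, joined the first bin of subcluster 1 to the last bin of subcluster 3. The lowest growing value, 0.701 ± 0.504 (SD, n = 3), joined the bin of H4C3, H1-6 and the iron-regulating gene HFE to the second bin of subcluster 2.

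Within each subcluster the bins differed in how strongly they contacted the others. In subcluster 1 the first bin had the highest mean, 12.4 times the expected value in growing cells and 9.17 times in RIS. The bins of H2BC6, H4C4, H3C4 and H2AC7 and of H4C5, H2AC8, H3C6 and H1-3 followed, with 8.40 and 8.22 times in growing cells and 7.24 and 6.45 times in RIS. The bin with HFE, which holds 2 histone genes, had the lowest mean in growing cells, 3.28 times, and stood at 3.86 times in RIS. The poorly covered bin of H2BC4, H2AC6, H1-4 and H2BC5 rested on 11 to 29 contacts a library, and its RIS replicates lay far apart, at log2 values of 1.13 and 2.56.

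Subcluster 2 offers a comparison of neighbours, since its first bin holds all 5 genes and its second bin, chr6:27120001-27160000, holds none. The first bin, with H2BC11, H2AC11, H4C9, H2BC12 and H2AC12, had log2 values of 2.29, 2.44 and 2.42 in growing cells and 2.41 and 2.46 in RIS with the bins of the other subclusters. The second bin had 1.59, 1.60 and 1.78 in growing cells and 1.90 and 1.94 in RIS. The gene-free bin was lower in all 5 libraries, yet still 3.15 times above the expected value in growing cells. In subcluster 3 the 3 bins lay close together, between 7.49 and 9.34 times in growing cells and between 6.80 and 7.76 times in RIS.

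**Figure D2:**
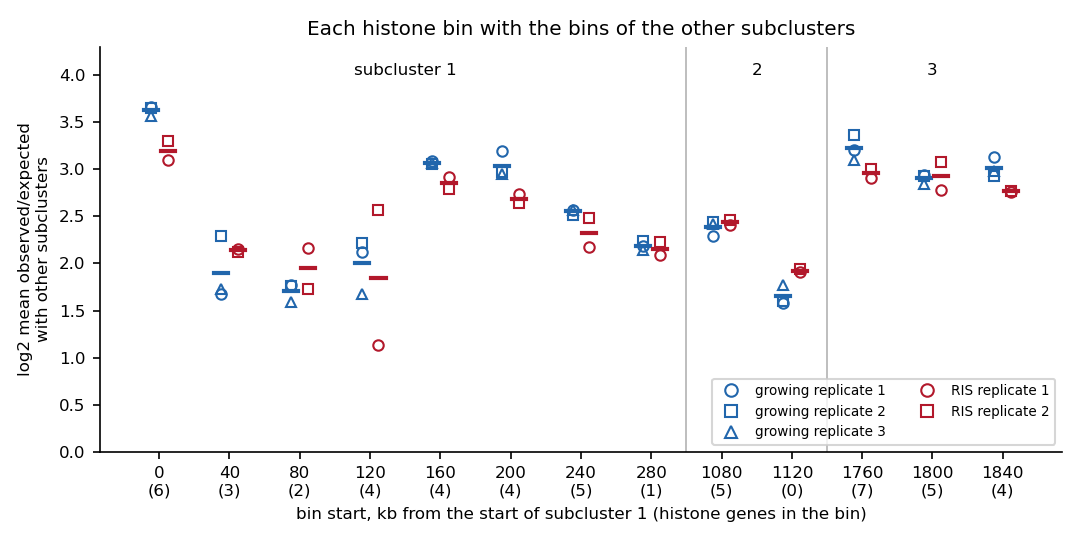
Contacts of each of the 13 histone bins with the bins of the other subclusters, as log2 mean observed over expected in Hi-C, for 3 growing (blue) and 2 RIS (red) libraries, with group means as bars; below each bin stand its start in kb from the start of subcluster 1 and, in brackets, its number of histone genes. The bin without a histone gene, at 1120 kb, lies below its neighbour at 1080 kb in each library.

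Copies of histone genes resemble each other, and a read placed in the wrong copy would move contacts between subclusters. Of the 50 coding sequences, 28 shared no stretch of 50 bases with another replication-dependent histone gene and 7 shared over 20% of such stretches. The part of misplaced reads in these contacts was not tested.

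Next, contacts of the same bins with the spacer were compared. The spacer lies between subclusters 1 and 2 and holds BTN3A2, BTN2A2, BTN3A1, BTN3A3, BTN2A1 and BTN1A1, butyrophilin genes that include regulators of T cells, and its last bin also holds HMGN4. Histone bins contacted it at log2 values of -0.14, -0.06 and -0.04 in growing cells and 0.31 and 0.17 in RIS. RIS was higher without overlap, by 0.32 (exact permutation p = 0.1, adjusted p = 0.15), and by 0.20 between the libraries with many duplicates. The difference was 0.43 for subcluster 3, whose spacer contacts were at 1.47 and 1.98 times the expected value, 0.28 for subcluster 2 and 0.24 for subcluster 1. Between the libraries with many duplicates it was 0.39, 0.15 and 0.08, and without RIS replicate 1 that of subcluster 1 was 0.15. Spacer contacts of subcluster 3 rested on 98 to 114 recovered contacts a library. Of the 18 contact values compared, 15 showed no overlap between conditions, among them those within each flank. Several of the 18 share bin pairs or are differences of others, so they are not separate results. The share of other chromosome 6 blocks without overlap is not given. Pairs of A bins elsewhere on chromosome 6 were also higher in RIS. At the distances between subclusters 1 and 2, 1 and 3, and 2 and 3 they rose by 0.10, 0.10 and 0.08. At those within subcluster 1 they rose by 0.05 (exact permutation p = 0.1 for all of these). Spacer contacts were not set against A bins.

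Contacts with the flanks, counted up to 2 Mb, were below the chromosome's average in all 5 libraries, at -0.62, -0.66 and -0.54 in growing cells and -0.30 and -0.49 in RIS (difference 0.22, exact permutation p = 0.1, adjusted p = 0.15). The difference was 0.12 without RIS replicate 1 and 0.06 between the libraries with many duplicates. The flanks differed from each other. Contacts with the downstream flank were at -0.17 ± 0.04 (SD, n = 3) in growing cells and 0.21 ± 0.15 (SD, n = 2) in RIS, without overlap. The values for the upstream flank overlapped, at -0.992 ± 0.08 and -0.997 ± 0.10. With subcluster 1, the downstream bins starting at chr6:28840001 and chr6:28880001 had means of 1.718 and 1.904 in growing cells. In RIS they had 2.215 and 1.864. Both lie over 2 Mb from subcluster 1, so its flank values leave them out. Subclusters 1 and 2 were at 1.576 in growing cells and 1.686 in RIS. Other downstream bins were low, such as that at chr6:29320001, with -2.43 and -2.021. Strong contact was thus not confined to histone bins.

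Contacts between subclusters differed by 0.11 for 1 and 2, -0.25 for 1 and 3 and 0.17 for 2 and 3. The excess of their mean over the mean of the contacts of each subcluster with the spacer was taken within each library. On the log2 scale it was 2.57, 2.54 and 2.49 in growing cells and 2.12 and 2.33 in RIS. The excess was lower in both RIS libraries, by 0.31 in the mean, corresponding to 5.79 times in growing cells and 4.68 times in RIS (exact permutation p = 0.1, adjusted p = 0.15). Spacer contacts were higher in RIS for each subcluster, whereas contacts between subclusters moved in both directions. The difference in excess was -0.20 without RIS replicate 1 and -0.16 between the libraries with many duplicates. Against the flanks the excess was 3.11, 3.199 and 3.07 in growing cells and 2.78 and 3.05 in RIS (exact permutation p = 0.1, adjusted p = 0.15). Without RIS replicate 1 this last difference went from -0.21 to -0.07, and between the libraries with many duplicates it was -0.02.

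**Figure D3:**
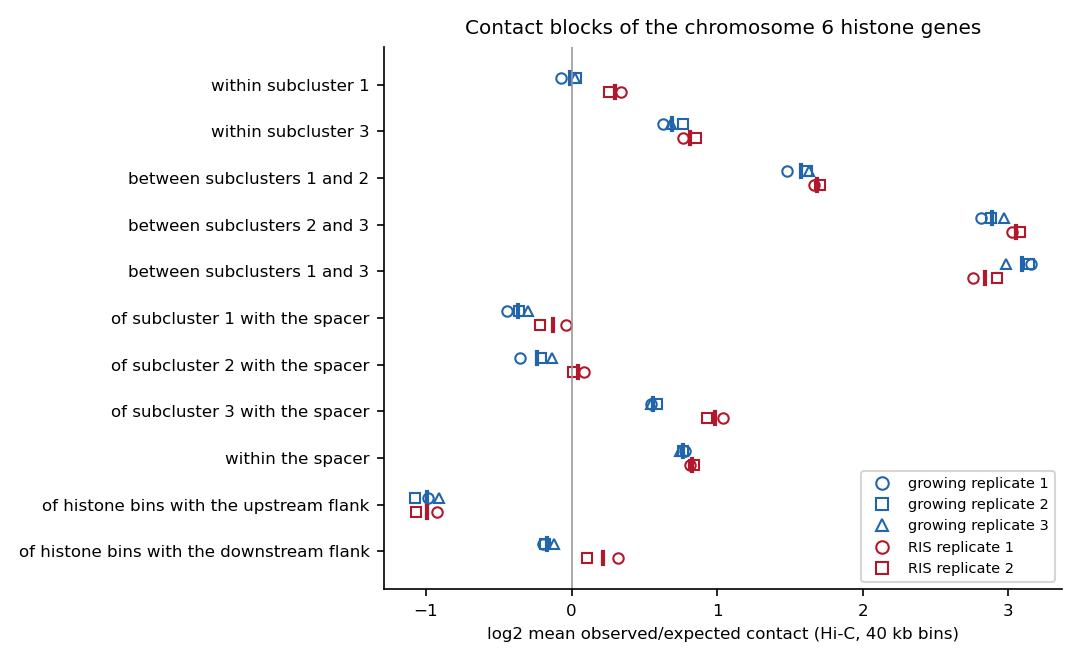
Log2 mean observed over expected contact of each block of 40 kb bin pairs in the 3 growing (blue) and 2 RIS (red) Hi-C libraries, with group means as short bars; 0 is the chromosome 6 average at the same distance. Contacts between subclusters 1 and 3 lie lower in RIS, and those of all subclusters with the spacer lie higher.

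Within subcluster 1, contacts lay at the chromosome's average in growing cells and above it in RIS. The 28 bin pairs gave log2 values of -0.08, 0.03 and 0.02 in growing cells and 0.34 and 0.26 in RIS, a difference of 0.31 without overlap (exact permutation p = 0.1, adjusted p = 0.15). Relative to A bins at the same distances the values were -0.29, -0.21 and -0.20 in growing cells and 0.06 and -0.02 in RIS, below those bins in growing cells and close to them in RIS. The log2 coverage of these bins relative to the median bin was also higher in RIS, at -0.64, -0.63 and -0.56 in growing cells and -0.37 and -0.51 in RIS, and its part in the result was not tested. Recovered contacts without balancing gave a difference of 0.51. Within subcluster 3 the 3 pairs were at 0.63, 0.76 and 0.68 in growing cells and at 0.76 and 0.86 in RIS, where the groups overlapped (exact permutation p = 0.3). Within the spacer the values were 0.78, 0.76 and 0.75 in growing cells and 0.81 and 0.84 in RIS. Contacts within the upstream and the downstream flank were also higher in both RIS libraries, by 0.16 and 0.19 (exact permutation p = 0.1 for each).

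Bin pairs were then tested singly by limma among 1959041 pairs of the genome up to 2 Mb apart. All 78 pairs of different histone bins had a mean scaled value of 5 or more and were tested. No histone pair passed an adjusted p of 0.05 in either direction, where the background was 0% of all pairs called higher in RIS and 0.000102% called lower. At an unadjusted p under 0.05, 16 histone pairs were higher and 5 lower, beside 5.26% and 6.29% of all pairs. Without the mean-variance trend these were 6 higher and 3 lower, beside 4.78% and 5.42% of all pairs. The median log2 fold change of the 78 pairs was 0.19, beside -0.00258 over all pairs. Within subcluster 1, 25 of 28 pairs were on the higher side, with a median of 0.39, and between subclusters 1 and 3, 8 of 24, with a median of -0.25. In limma voom on recovered contacts, 12 of the 78 pairs rose at an adjusted p of 0.05 and none fell, against a background of 1.55% called higher and 0.214% lower among all pairs, and 9 of the 12 lay within subcluster 1. In that fit the median of all pairs was 0.10, that of the histone pairs 0.42, and that of the 24 pairs between subclusters 1 and 3 was -0.00759.

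Of the 78 pairs, 51 were on the higher side, and the 5 pairs with the largest fold changes on each side follow, those with more contacts by their scaled values. The lowest fold change, -1.10 ± 0.59 (SE; limma adjusted p = 0.501), joined the poorly covered bin of H2BC4, H2AC6, H1-4 and H2BC5 to the last bin of subcluster 3, on 10, 4 and 3 recovered contacts in growing cells and 1 and 3 in RIS. The contact of H4C5, H2AC8, H3C6 and H1-3 with the first bin of subcluster 3 had scaled values of 60.4, 60.4 and 50.3 in growing cells and 35.7 and 29.0 in RIS. Its log2 fold change was -0.71 ± 0.17 (SE), with an adjusted p of 0.302 in limma. The first bin of subcluster 1 with the first bin of subcluster 3 had 68.8, 70.0 and 53.9 in growing cells and 33.2 and 42.8 in RIS (log2 fold change -0.67 ± 0.18, limma adjusted p = 0.319). The same bin with the last bin of subcluster 3, which holds H4C13, H3C12, H2AC17 and H2BC17, had 63.3, 53.9 and 52.6 in growing cells and 34.0 and 38.5 in RIS (-0.54 ± 0.17, limma adjusted p = 0.343). In the last 3 pairs both RIS libraries were below all growing libraries. The fifth pair on the lower side joined the bin of H4C7, H3C7, H2BC9, H3C8 and H2BC10 to the last bin of subcluster 3, at -0.48 ± 0.26 (limma adjusted p = 0.503). The largest value on the higher side, 1.73 ± 0.57, joined the bin of H4C3, H1-6 and HFE to the gene-free bin of subcluster 2, on 2, 11 and 5 recovered contacts in growing cells and 11 and 14 in RIS. It did not pass limma on balanced values (adjusted p = 0.353) and passed voom (adjusted p = 0.0182). The bin of H2BC3, H3C3 and H1-2 followed, at 0.83 ± 0.31 with the second bin of subcluster 3 and 0.80 ± 0.59 with the gene-free bin (limma adjusted p of 0.382 and 0.610). The poorly covered bin of subcluster 1 had 0.82 ± 0.26 with the bin of H4C8 and 0.74 ± 0.36 with the first bin (limma adjusted p of 0.344 and 0.468). These 4 pairs rested on 3 to 23 recovered contacts a library.

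Local structure was read from the insulation score, the log2 of contacts that cross a bin within 13 bins to each side, where low values mark borders. The lowest score between the outer ends of the flanks lay at the start of subcluster 1 in every library, in the first or second bin, at -2.48, -2.31 and -2.16 in growing cells and -2.15 and -2.25 in RIS. By limma with adjustment over 68771 bins, 10 of the 13 histone bins had a higher score in RIS and 0 a lower one, against a background of 27.4% called higher and 27.8% lower. The window reaches 520 kb to each side, so neighbouring bins of a subcluster share many contacts and their calls are not separate observations. The higher calls numbered 8 without growing replicate 1, 8 without RIS replicate 1, 8 with a window of 25 bins, and 3 with that window and without RIS replicate 1. The 3 bins that did not pass were the first bin of subcluster 1 and both bins of subcluster 2, with differences of 0.07, 0.04 and 0.01. The bin of H4C8 rose by 0.40 ± 0.06 (SE; limma adjusted p = 0.000154), from -0.89, -0.77 and -0.74 in growing cells to -0.33 and -0.48 in RIS. The first bin of subcluster 3 rose by 0.33 ± 0.04 (SE; limma adjusted p = 9.985e-05), from -0.98, -0.92 and -0.89 to -0.60 and -0.59. Among the bins called higher, that of H2BC3, H3C3 and H1-2 had RIS replicate 2 just below growing replicate 3. All 5 spacer bins rose as well, by 0.12 to 0.18.

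The A/B score, the first principal component of each chromosome in merged bins of 120 kb, is positive in the active A compartment and negative in the inactive B compartment. On chromosome 6 its correlation with gene density was 0.240 to 0.249 in size. The 3 merged bins from chr6:26040001 to 26400000, which hold most of subcluster 1, fell from means of 1.14, 1.30 and 1.38 in growing cells to means of 0.81, 0.96 and 1.05 in RIS (limma adjusted p of 0.00244, 0.00266 and 0.00162). They stayed positive in every library. Subcluster 2 lay near the boundary, and its second merged bin, chr6:27120001-27240000, rose from -0.34, -0.41 and -0.15 in growing cells to 0.07 and 0.06 in RIS (limma adjusted p = 0.0145). That merged bin holds no histone gene. All 5 genes of subcluster 2 lie in its first merged bin, whose values are not given here. The merged bin with the first genes of subcluster 3 did not pass, with 0.63 in growing cells and 0.54 in RIS. In all, 2 of 8 merged bins with histone bins were called higher and 3 lower, beside 19.5% and 25.5% of all merged bins. The higher calls came to 1 without growing replicate 1 and to 0 without growing replicate 2, RIS replicate 1 or RIS replicate 2.

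Capture Hi-C measured subcluster 1 in other libraries and in bins of 10 kb. Its captured region held 130 kept bins, of which 25 lay in subcluster 1, 15 with a histone gene and 10 without, and 17 in the spacer. A bin counts as having a histone gene where the middle of its coding sequence lies there. The bins without a histone gene are not free of genes. HFE lies in some of them, and the annotated spans of H2BC4, H2AC6 and H2BC5 reach into others. Subclusters 2 and 3 had no kept bin in the capture maps. The libraries held 149306318 to 171661035 contacts in growing cells and 68888400 to 99777666 in RIS, and 2 libraries against 2 allow no exact permutation p below 0.333. Contacts within subcluster 1 lay at -0.09 and -0.07 in growing cells and at 0.10 and 0.04 in RIS, a difference of 0.15 without overlap (exact permutation p = 0.333), relative to the captured region. The difference was 0.06 as a ratio of sums, 0.27 with the expected value of all captured regions and 0.35 without balancing. With the spacer they were at -0.28 and -0.27 in growing cells and -0.04 and -0.27 in RIS, and only RIS replicate 1 stood apart.

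At this resolution and within subcluster 1, pairs of bins of the same kind, both with a histone gene or both without, had more contact than mixed pairs. Pairs of bins that both hold a histone gene gave log2 values of 0.25 and 0.26 in growing cells and 0.29 and 0.25 in RIS, with overlap. Pairs of a bin with and a bin without a histone gene gave -0.42 and -0.39 in growing cells and -0.07 and -0.15 in RIS. Pairs of bins without a histone gene lay between, at -0.04 and 0.01 in growing cells and 0.16 and 0.11 in RIS. The difference between gene bin pairs and mixed pairs was 0.67 and 0.65 in growing cells and 0.36 and 0.41 in RIS, lower in both RIS libraries by 0.28 (exact permutation p = 0.333, adjusted p = 0.444 over 8 capture values). The contrast was thus 1.58 times in growing cells and 1.30 times in RIS, and its difference was -0.15 as a ratio of sums. Yet the bin with the most contact with these histone gene bins lay beyond the spacer and holds no histone gene. Starting at chr6:26570001, it had 2.06 and 2.20 in growing cells and 2.39 and 2.23 in RIS. The highest histone gene bin, that of H3C2 and H2AC4, had 0.96 and 0.94, and 0.82 and 0.76. In growing cells most spacer bins lay below 0.

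**Figure D4:**
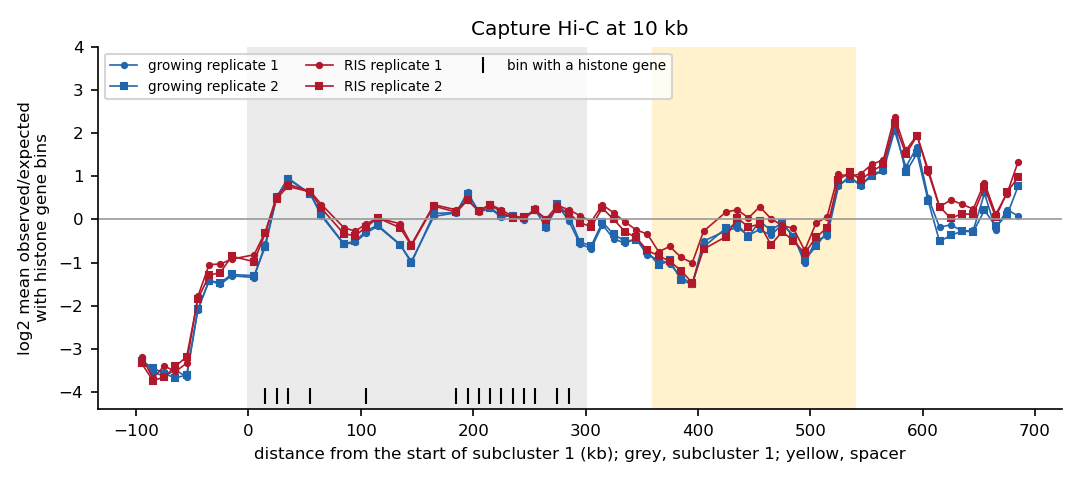
Mean contact of each 10 kb bin with the histone gene bins of subcluster 1 in capture Hi-C, as log2 observed over expected within the captured region, against the distance from the start of subcluster 1 in kb, for 2 growing (blue) and 2 RIS (red) libraries; grey marks subcluster 1, yellow the spacer, and ticks the bins with a histone gene. Within subcluster 1, stretches without a histone gene dip below neighbouring histone gene bins, and the dips are shallower in RIS.

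Finally, contacts with histone genes on another chromosome were examined. The histone gene cluster of chromosome 1 that was used lies at chr1:149783501-149859466, in 3 bins of 40 kb, and does not include H2AC25 and H2BC26 farther along the chromosome. In Hi-C the 13 histone bins of chromosome 6 had 9, 13 and 14 recovered contacts with those 3 bins in growing cells and 4 and 1 in RIS. With 15 kept bins to either side of the chromosome 1 genes they had 5, 8 and 4 contacts in growing cells and 6 and 6 in RIS. The 3 bins, 16.7% of the 18, thus took 64.3%, 61.9% and 77.8% of these contacts in growing cells and 40% and 14.3% in RIS. The exact binomial 95% intervals are wide, 35.1 to 87.2% in growing replicate 1 and 0.361 to 57.9% in RIS replicate 2, and cover counting error only. On balanced values per bin pair the log2 ratio was 4.08, 3.29 and 4.82 in growing cells and 2.31 and 0.00 in RIS, with the RIS values below all growing values (difference -2.91, exact permutation p = 0.1). Without RIS replicate 2, which had 1 such contact, the difference was -1.75. The 74 flank bins of chromosome 6 had 5, 4 and 4 contacts with the same 3 bins in growing cells and 2 and 0 in RIS, and the 5 spacer bins had 0, 1 and 0 in growing cells and 2 and 2 in RIS.

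Both histone loci lie in captured regions, so the same contacts were counted in capture Hi-C, a comparison added after the Hi-C values had been seen. On chromosome 1 the bins of H4C14 and H4C15 were not kept, which left 4 histone gene bins. The regions had 1510 and 1298 contacts with each other in growing cells and 634 and 456 in RIS. Of these, 316 and 252 in growing cells and 81 and 73 in RIS joined 1 of the 15 histone gene bins of subcluster 1 to 1 of the 4 histone gene bins of chromosome 1. That is 20.9% (exact binomial 95% interval 18.9 to 23.1%) and 19.4% (17.3 to 21.7%) in growing cells and 12.8% (10.3 to 15.6%) and 16.0% (12.8 to 19.7%) in RIS, where those bins make up 0.962% of the possible pairs. The RIS shares lay below both growing shares, at 14.4% ± 2.29 (SD, n = 2) against 20.2% ± 1.07 (SD, n = 2), with the smallest exact permutation p the design allows, 0.333. Per bin pair and on balanced values, histone gene bins contacted each other 28.4 and 19.7 times as much as the bins outside subcluster 1 and the chromosome 1 genes did in growing cells and 10.2 and 17.2 times in RIS. On the log2 scale these ratios were 4.83 and 4.299 in growing cells and 3.35 and 4.11 in RIS, and without balancing they were 5.76 and 5.75 in growing cells and 4.81 and 5.14 in RIS.

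Among the bins of chromosome 6, that of H3C4 and H2AC7 had the most contacts with the chromosome 1 histone genes over the 4 libraries together, 124. It had 45 and 50 in growing cells and 12 and 17 in RIS, and was not the highest in growing replicate 1 or RIS replicate 1. The bin of H3C1, H4C1 and H4C2 had 47 and 26 in growing cells and 8 and 8 in RIS, and the bin of the linker histone gene H1-3 had 40 and 24 in growing cells and 16 and 9 in RIS. Bins of subcluster 1 without a histone gene also had contacts, 106 and 102 over 10 bins in growing cells and 43 and 36 in RIS. The 17 spacer bins had 20 and 28 in growing cells and 14 and 8 in RIS. The 88 other bins of the captured region had 47, 34, 22 and 12. Contacts with the chromosome 1 histone gene bins were therefore, per bin on average, densest at histone gene bins in each of the 4 libraries. Contacts with the other bins of the chromosome 1 region were not. Over all 4 libraries they numbered 788 at the 15 histone gene bins, 52.5 per bin, and 724 at the 10 bins without, 72.4 per bin. The part of misplaced reads between near-identical copies was not tested.

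**Figure D5:**
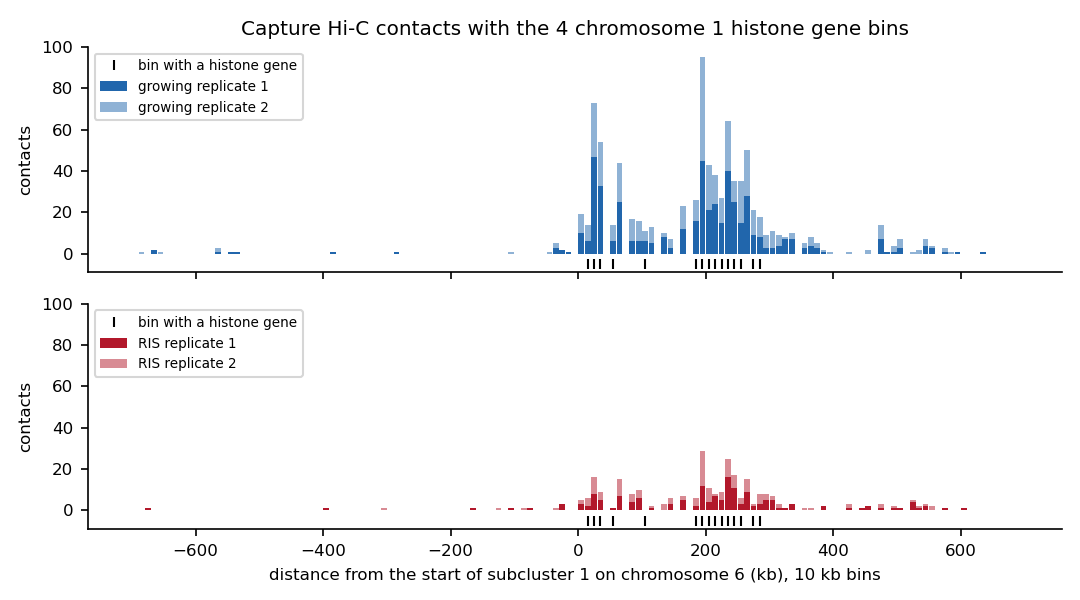
Recovered capture Hi-C contacts of each 10 kb bin of the chromosome 6 region with the 4 histone gene bins of chromosome 1, stacked over 2 growing libraries (top, blue) and 2 RIS libraries (bottom, red), against the distance from the start of subcluster 1 in kb; ticks mark bins with a histone gene. Contacts pile up over subcluster 1 in both conditions, and counts are not scaled for the lower depth of the RIS libraries.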

How the data were processed

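Per the labels and the study's methods, the authors checked reads with FastQC, mapped them with HiC-Pro to hg19, took out artefacts and duplicate reads, and counted each library on its own. The deposited signal is the ICE-balanced contact of each pair of bins (Hi-C 40 kb, capture 10 kb), with a total of 200000000 in each Hi-C library and differing totals in capture. Balancing equalizes bin sums and hides depth, so contacts were recovered with 1 factor per bin, which gave whole numbers for 100% of values in all 9 libraries. The tolerance was 0.05 for small values and grew with the count for large ones. In capture, the factors were also rescaled to the multiple that made small values whole. Genes came from GENCODE on GRCh37, whose lengths of chromosomes 1 and 6 matched the deposited bins. Growing replicate 3 and RIS replicate 2 form a class with many duplicates by the study's read statistics.

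Members, gene lists and tests were chosen with earlier results of these data known. The named genes are all histone genes in the 3 intervals, HFE, the genes of the spacer bins, and those in at most 5 histone bin pairs with the largest change in each direction. Histone genes outside the intervals or not analysed are named outside this rule, to state what was and was not counted. Contact values per library were tested with exact permutations (two-sided, Benjamini-Hochberg adjusted). Balanced values are not counts, so bin pairs were tested by limma on log2 values (pseudocount 0.5, loess span 0.3 with 4 iterations, mean of at least 5, mean-variance trend), and insulation and A/B scores likewise. The A/B sign was set by gene density. Intervals cover counting error only. On simulated contacts, where 200 of 20000 pairs differed 2-fold, limma found 61 of them and voom 61, with 9 and 5 false calls. With an added dispersion of 0.02 each found 35, with 0 and 1 false calls. The simulation adjusted over 20000 pairs, against 1959041 in the data, and held no shifts of bin coverage between conditions. Its rates therefore need not hold for the data. Alternatives covered the expected value, balancing, filters, pseudocount, windows, blocks and left-out libraries. Software was R 4.3.3 with limma 3.58.1, and Python 3.11.15 with numpy 2.4.6, pandas 2.3.3 and scipy 1.17.1.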

Additional observations from a re-analysis of the deposited data

How the results depend on the processing

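Over 185 alternatives of the 14 contact values in the design, 184 kept the direction. The exception was the contact between subclusters 1 and 2, which came to -0.00110 with only histone gene bins. Where the groups of a contact value do not overlap, leaving out, pairing or splitting the libraries cannot reverse it. Those alternatives had a fixed outcome and are no evidence of stability. Pairing gives the main value again in capture, and in Hi-C the value without growing replicate 3. The permutation tests of the 14 values cannot pass 0.05 in this design, so kept directions say nothing of a call. The 2 replicate numbers shared by both conditions mark no stated pair: the deviations of growing and RIS replicate 1 correlated at 0.00310 and those of replicate 2 at -0.00102. The replicate block used replicates 1 and 2 only, for contact values as paired differences. With it, contacts between subclusters 1 and 3 differed by -0.31 and those within subcluster 1 by 0.32. The excess over the spacer differed by -0.33, and contacts with chromosome 1 by -2.53. The counts of called bin pairs, of insulation calls with windows of 13 and 7 bins and of A/B calls stayed as they were. Insulation calls with a window of 25 bins went from 8 to 10. They were also 10 without growing replicate 3 and without a block.

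Limma voom called 12 histone bin pairs higher in RIS where limma on balanced values called 0. Calls of a higher A/B score numbered 1 with 5 merged bins and 0 to 2 with a library left out, falling to 1 without growing replicate 1 and to 0 without growing replicate 2, RIS replicate 1 or RIS replicate 2. Leaving out a library moved contacts between subclusters 1 and 3 from -0.33 to -0.17, contacts with chromosome 1 from -4.06 to -1.75, the log2 ratio of capture contacts with chromosome 1 from -1.22 to -0.46 (the latter without RIS replicate 1), and capture contacts with the spacer from 0.00423 to 0.24. The causes were not tested.

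Values near 0 changed sign. Contacts within subcluster 2 were -0.0312 with the whole genome's expected value, -0.0321 with that of A bins, -0.0404 with that of the short arm, -0.0766 in the libraries with many duplicates, and -0.0244 to 0.0370 with a library left out. Those with the upstream flank were 0.0283 with the whole genome's expected value, 0.0414 as a ratio of sums, 0.0365 with histone gene bins only, 0.00865 without balancing, 0.0353 with the replicate block, 0.106 in the libraries with few duplicates, and -0.0759 to 0.0664 with a library left out. In capture, contacts within the spacer were 0.0412 with the expected value of all captured regions and 0.0455 without balancing. Those among histone gene bins were -0.00237 to 0.0317 with a library left out. Those among bins of subcluster 1 without a histone gene were -0.0265 as a ratio of sums. The chromosome 1 contacts in Hi-C rest on 4 and 1 contacts in RIS.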
